A study of Homo sapiens with 6 samples.

Results

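The genes described here are 10 transcripts of the NF-κB response. They are the chemokines CXCL1, CXCL2, CXCL3, CXCL8 and CCL20, the colony stimulating factors CSF1, CSF2 and CSF3, and the inhibitors NFKBIA and TNFAIP3. They were chosen by symbol from a table of 25349 genes, and all 10 were in it and passed the filter on low counts. The 10 genes and the gene lists below were chosen with earlier results of these data known. Shares of passing genes among them are therefore a description and not a test. The libraries came from SCC-9, an established human cell line from a tongue squamous carcinoma, which grew in medium with serum and 400 ng/mL hydrocortisone, a glucocorticoid. The 3 siE7 libraries came from cells that received an siRNA directed at exon 7 of MKI67, which encodes the proliferation protein Ki67. The 3 siNC libraries came from cells given a nonspecific siRNA. In both groups the siRNA was used at 10 nM with Lipofectamine 3000 on day 0, was given again on day 2, and the cells were harvested for RNA on day 4. Several siRNAs against exon 7 belong to the study, and the one used for these libraries is not given in the sources used here. The groups show which transcripts differ between cells given the siRNA against exon 7 and cells given the nonspecific siRNA. No group with Ki67 restored is among them, so other effects of the siRNA cannot be told apart from loss of Ki67. Counts per gene also do not separate the forms of MKI67 with and without exon 7.

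NF-κB is a family of dimeric transcription factors held in the cytoplasm by inhibitory proteins of the IκB family. Cytokine and Toll-like receptors act through adaptors on the IκB kinase, which marks IκB for destruction, and the freed dimers bind κB sites in promoters. CXCL1, CXCL2, CXCL3 and CXCL8 draw neutrophils through the receptors CXCR1 and CXCR2, and CCL20 draws CCR6-bearing lymphocytes and dendritic cells. CSF1, CSF2 and CSF3 support macrophages, granulocytes with macrophages, and granulocytes, in that order. NFKBIA encodes IκBα and TNFAIP3 encodes the ubiquitin-editing enzyme A20, and both are themselves NF-κB targets that close the loop. Many of these messages are short-lived, because AU-rich elements in the 3′ UTR recruit decay factors. Squamous carcinoma cells are a known source of several of these factors.

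The promoter sequences are shown first, since the 10 genes, chosen by symbol, are known as NF-κB targets. RefSeq promoters of 300 bases (GRCh38.p14) were matched for 8 of the 10 genes. CSF1 and CSF3 had none in the promoter table. On human chromosome 4, CXCL8, CXCL1, CXCL3 and CXCL2 lie in that order in 1 cluster. In the lines that follow, 60 bases are given 5′ to 3′ on the strand of the gene, and capitals mark the κB consensus on either strand. In CXCL8 the capitals mark TGANTCA instead, the motif of AP-1.
CXCL1 chr4:73869289-73869348 (+): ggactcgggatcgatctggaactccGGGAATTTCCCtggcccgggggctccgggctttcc
CXCL2 chr4:74099239-74099298 (−): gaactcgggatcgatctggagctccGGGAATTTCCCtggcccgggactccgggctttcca
CXCL3 chr4:74038734-74038793 (−): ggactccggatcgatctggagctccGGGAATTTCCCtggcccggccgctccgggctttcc
CXCL8 chr4:73740407-73740466 (+): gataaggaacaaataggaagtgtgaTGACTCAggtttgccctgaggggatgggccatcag
CCL20 chr2:227813738-227813797 (+): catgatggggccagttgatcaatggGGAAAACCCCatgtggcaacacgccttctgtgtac
NFKBIA chr14:35404796-35404855 (−): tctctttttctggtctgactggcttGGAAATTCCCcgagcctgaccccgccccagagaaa
TNFAIP3 chr6:137867167-137867226 (+): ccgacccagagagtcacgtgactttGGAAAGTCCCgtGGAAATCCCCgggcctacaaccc

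CXCL1, CXCL2 and CXCL3 carried the same κB stretch at nearly the same distance from the start, at −79 to −69 in CXCL1 and CXCL3 and at −78 to −68 in CXCL2. In these 3 genes the consensus was matched on both strands within that stretch. CCL20 held it at −79 to −70 and NFKBIA at −81 to −72. TNFAIP3 held 2 sites, at −67 to −58 and at −55 to −46. The consensus was found in 6 of the 8 promoters, against 11.3% of 35116 RefSeq promoters and 13.4% of the promoters of tested genes. CXCL1, CXCL2 and CXCL3 are close copies, so the 6 promoters are not separate cases. A looser form, GGGNNNNNCC on either strand, which includes every site of the consensus, was in all 8 promoters. It was also in 58.7% of all promoters and 72.0% of those of tested genes, so it separates little. TGANTCA was found in 1 of the 8 (CXCL8, −137 to −131), in 7.71% of all promoters and in 5.41% of those of tested genes. TATAAA on either strand was found in CXCL8, CCL20 and NFKBIA. It was in 11.5% of all promoters and 6.20% of those of tested genes. The windows of CXCL8 and CSF2 held no match to the stricter consensus, which says only that these letters are not in these bases.

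The 3′ UTRs were rich in the pentamer ATTTA, the core of AU-rich elements. All 10 genes lay above the median of 1.68 ATTTA per kb over 12430 tested genes with a 3′ UTR of at least 50 bases. CSF2 was the densest with 25.2 per kb, followed by CXCL2 with 14.0, CXCL3 with 10.4, CSF3 with 8.20, CXCL1 with 7.77 and CXCL8 with 7.19. CSF1, with 1.86 per kb, and TNFAIP3, with 2.51, were close to that median. The longer element TTATTTATT was found in CXCL1, CXCL2, CXCL3, CXCL8, CSF2 and TNFAIP3, which is 6 of 10 genes against 9.61% of the tested genes. CXCL2 held 5 of these, CXCL1 and CSF2 held 3 each, and 2.27% of the tested genes held at least 2. CXCL1, CXCL2 and CXCL3 are close copies, so the 6 genes are not separate cases. Many of the 10 messages are known as short-lived, so a high share follows in part from their choice. The 30 bases with the most copies of TTATTTATT, and on a tie the most ATTTA, are given for CXCL1, CXCL2 and CSF2. CXCL1 and CSF2 fell, and CXCL2 did not pass the test described further on. Capitals mark ATTTA (GRCh38, strand of the gene).
CXCL1 chr4:73870667-73870696 (+): taggagaagtcttctATTTATTTATTTAtt
CXCL2 chr4:74097588-74097617 (−): gtcttctATTTATTTATTTATTTATTTAtt
CSF2 chr5:132076072-132076101 (+): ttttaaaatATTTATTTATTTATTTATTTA

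The libraries held 25608192 to 29550264 counts on genes. The targeted gene came first. MKI67 stood at 1072, 1029 and 1077 CPM (counts relative to the library size, scaled by TMM factors) in siNC 1 to 3 and at 112, 124 and 108 CPM in siE7 1 to 3, a log2 fold change of −3.21 (SE 0.114, adjusted p = 6.7e-08, edgeR's quasi-likelihood F-test). Within groups, siE7 replicate 1 stood apart. The second principal component, 17.8% of the variance, placed it at −46.4 and the other siE7 libraries at 20.6 and 21.0. Count differences per degree of freedom (chi-square) were 61.1 and 72.7 against the other siE7 libraries and 5.54 to 6.22 in the remaining pairs of either group, so every library was counted on its own. Calls of the 10 genes and counts of the gene lists are therefore also given without this library. The library was singled out from these same counts, and the siE7 pair that remains was close. The p-values of that fit can therefore be too small and its intervals too narrow. Nothing in the labels says whether the libraries of a group came from separate cultures, so the p-values measure the spread between these samples, which may be technical.

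Squamous epithelial markers were checked in every library. All 10 (among them KRT5, KRT17, CDH1, EPCAM, DSP and SFN) were above 1 CPM, and their summed level was 24956 to 26463 CPM in siNC and 22683 to 29046 CPM in siE7. Of 20 leukocyte markers 12 were in the table and 5 had a mean above 1 CPM. Their sum was 814 to 1044 CPM in siNC and 533 to 620 CPM in siE7, and S100A9, also made by keratinocytes, gave most of it with means of 886 and 562 CPM. The other leukocyte markers above 1 CPM were S100A8, CORO1A, CSF1R and CD14. PTPRC, which belongs to this list, was not among those above 1 CPM. Of 12 fibroblast and endothelial markers, 3 were above 1 CPM, and their sum was 25.6 to 28.2 CPM in siNC and 25.4 to 33.1 CPM in siE7. In bulk RNA, fewer cells that express a gene and less RNA per cell cannot be told apart.

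Among the 10 genes, CXCL1, CSF1, CSF2 and CSF3 fell in siE7, none rose and 6 did not pass the test at an adjusted p under 0.05 (edgeR). By DESeq2 also 0 rose, and at an unadjusted p under 0.05 in edgeR 0 rose. Over all 14661 tested genes, 16.0% fell and 18.0% rose at that threshold. CXCL1, CSF2 and CSF3 were also DEGs, with a log2 fold change below −1, against 4.84% of the tested genes that were lower DEGs and 7.38% that were higher DEGs. The median log2 fold change of the 10 genes was −0.39 and that of all tested genes 0.077. The siNC and siE7 libraries did not overlap for 6 of the 10 genes, which is close to the 47.6% of all tested genes without overlap. Without siE7 replicate 1, 6 genes fell (CXCL1, CXCL3, CSF1, CSF2, CSF3 and TNFAIP3) and CXCL8 rose, against 29.5% of 15011 tested genes that fell and 28.9% that rose. The 3 DEGs remained CXCL1, CSF2 and CSF3, against 6.20% lower DEGs among all genes in that fit.

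**Figure D1:**
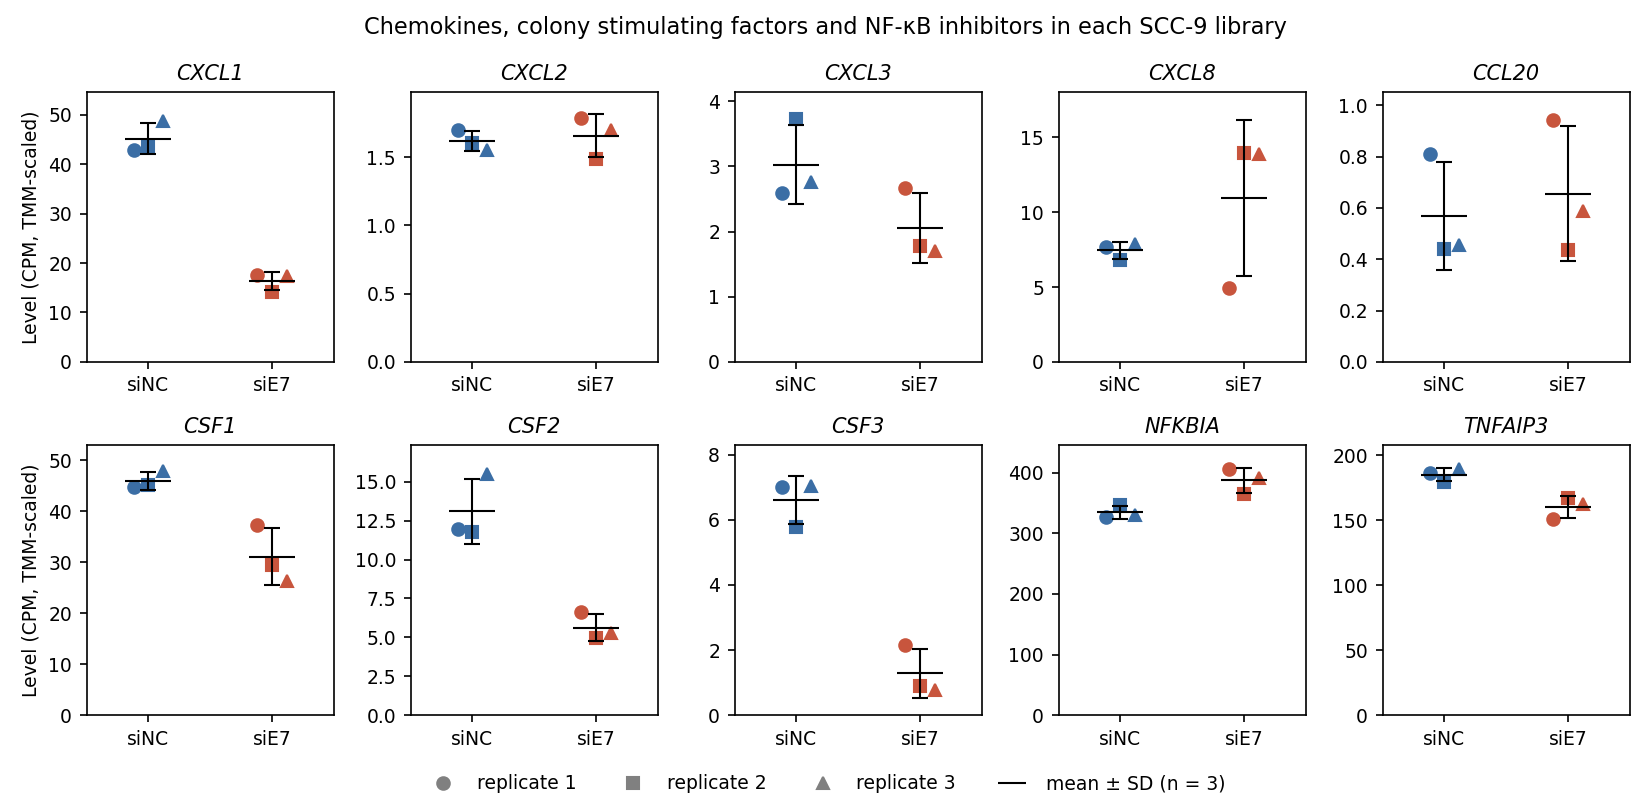
Level of each gene in each library in CPM, scaled by TMM factors, with its own vertical axis from 0. Points are libraries, with 1 shape per replicate number, and lines give the mean with bars of 1 SD (n = 3). CXCL1, CSF1, CSF2 and CSF3 are lower in all 3 siE7 libraries, and the siE7 values of CXCL8 are split, with replicate 1 at 4.93 CPM and the others at 13.9 CPM.

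The chemokines of the CXC family differed among themselves. CXCL1 (ENSG00000163739.5, chr4:73869393-73871308, + strand, GRCh38) stood at 42.9, 43.7 and 48.8 CPM in siNC and at 17.5, 14.2 and 17.4 CPM in siE7. All 3 siE7 libraries lay far below the lowest siNC library. The mean was 2.76-fold lower, 45.2 ± 3.19 against 16.4 ± 1.90 CPM (SD, n = 3 each), and the log2 fold change was −1.46 (SE 0.136, 95% interval −1.76 to −1.17, edgeR adjusted p = 2.1e-05). CXCL1 was the only chemokine of the 5 that passed the test. It passed in every alternative analysis, with log2 fold changes from −1.58 to −1.30.

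CXCL2 (ENSG00000081041.9, chr4:74097040-74099196, − strand), the close relative of CXCL1, stood at 1.70, 1.60 and 1.55 CPM in siNC and at 1.79, 1.49 and 1.70 CPM in siE7. The groups overlapped. Its log2 fold change was 0.036 (SE 0.256, edgeR adjusted p = 0.93), with a 95% interval from −0.52 to 0.60 that does not reach the fall of CXCL1. The sign of this value flips to −0.020 with DESeq2 and −0.011 with RLE scaling. CXCL3 (ENSG00000163734.4, chr4:74036589-74038807, − strand) stood at 2.59, 3.72 and 2.76 CPM in siNC and at 2.67, 1.78 and 1.70 CPM in siE7. Replicate 1 of siE7 lay within the siNC range and the other libraries of siE7 below it. The log2 fold change of CXCL3 was −0.56 (SE 0.266, 95% interval −1.14 to 0.021, edgeR adjusted p = 0.12), and −0.86 without siE7 replicate 1 (edgeR adjusted p = 0.0049).

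These 3 chemokines are close copies, so reads could in part be counted on the wrong gene. The transcripts of CXCL1 and CXCL2 were identical at 83.4% of aligned positions, those of CXCL1 and CXCL3 at 69.3%, and those of CXCL2 and CXCL3 at 72.0%. Of the 50-base windows of the CXCL1 transcript, 5.33% were found unchanged in CXCL2 and 0.533% in CXCL3. No 150-base window, the read length of these libraries, was shared between any of the 3. With the counts of the 3 genes summed, the log2 fold change was −1.31 (SE 0.132, edgeR adjusted p = 3.9e-05). CXCL1 gave most of the summed counts. The promoters of CXCL1 and CXCL3 were 82.5% identical and those of CXCL1 and CXCL2 72.1%, while CXCL1 and CXCL8 were 42.6% identical.

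CXCL8 (ENSG00000169429.11, chr4:73740519-73743716, + strand), interleukin-8, was at 7.70, 6.81 and 7.84 CPM in siNC and at 4.93, 13.9 and 13.9 CPM in siE7. Replicate 1 of siE7 lay below all siNC libraries and the other siE7 libraries lay above all of them. The coefficient of variation was 7.52% in siNC and 47.6% in siE7. The log2 fold change was 0.55 (SE 0.317, 95% interval −0.14 to 1.25, edgeR adjusted p = 0.20) and did not pass. Without siE7 replicate 1 it was 0.84 (SE 0.129, 95% interval 0.58 to 1.10, edgeR adjusted p = 6.2e-07). With all 6 libraries and no filter on low counts CXCL8 also passed, with 0.54 (edgeR adjusted p = 0.037). In both of these fits its direction was opposite to that of CXCL1.

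CCL20 (ENSG00000115009.13, chr2:227805739-227817564, + strand) was the least abundant of the 10 genes per kb of exon, with 20, 11 and 12 counts in siNC and 28, 12 and 18 counts in siE7. These are 0.810, 0.440 and 0.454 CPM against 0.945, 0.435 and 0.589 CPM, and the groups overlapped. The log2 fold change was 0.21 (SE 0.447, edgeR adjusted p = 0.74), with an interval from −0.77 to 1.19. A difference of CCL20 was not detectable at this depth, and its sign turned to −0.20 without siE7 replicate 1.

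All 3 colony stimulating factors fell. CSF3 (ENSG00000108342.13, chr17:40015361-40017813, + strand), the granulocyte factor G-CSF, was at 7.01, 5.76 and 7.04 CPM in siNC and at 2.16, 0.906 and 0.785 CPM in siE7. No siE7 library reached the lowest siNC library. By the edgeR fit CSF3 was 5.13-fold lower, with means of 6.61 ± 0.728 against 1.28 ± 0.761 CPM (SD, n = 3 each). The log2 fold change was −2.36 (SE 0.332, 95% interval −3.09 to −1.63, edgeR adjusted p = 3.4e-04), the largest of the 10 genes. The siE7 level of CSF3 rests on 64, 25 and 24 counts, with the highest in replicate 1. Without that library the log2 fold change was −3.02, which is 8.13-fold lower (edgeR adjusted p = 1.6e-13).

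CSF2 (ENSG00000164400.6, chr5:132073789-132076170, + strand), the factor GM-CSF, was at 12.0, 11.8 and 15.5 CPM in siNC and at 6.61, 4.96 and 5.30 CPM in siE7. The groups were apart in every library. Its mean was 2.33-fold lower, with 13.1 ± 2.11 against 5.62 ± 0.871 CPM (SD, n = 3 each), and the log2 fold change was −1.22 (SE 0.187, 95% interval −1.63 to −0.81, edgeR adjusted p = 6.0e-04). CSF2 and CSF3 passed the test in all 13 alternatives. CSF1 (ENSG00000184371.14, chr1:109910242-109930992, + strand), the macrophage factor M-CSF, was at 44.7, 45.2 and 47.9 CPM in siNC and at 37.4, 29.6 and 26.4 CPM in siE7. It had the smallest fall of the family, 1.48-fold, with a log2 fold change of −0.56 (SE 0.143, 95% interval −0.88 to −0.25, edgeR adjusted p = 0.011). Without siNC replicate 3 CSF1 did not pass, with a log2 fold change of −0.54 (edgeR adjusted p = 0.057, range over the alternatives 1.3e-10 to 0.057).

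Neither inhibitor passed the test. NFKBIA (ENSG00000100906.11, chr14:35401079-35404749, − strand) was at 327, 347 and 329 CPM in siNC and at 406, 365 and 391 CPM in siE7. The groups did not overlap, but the log2 fold change was small, 0.21 (SE 0.103, 95% interval −0.014 to 0.44, edgeR adjusted p = 0.13). TNFAIP3 (ENSG00000118503.15, chr6:137867214-137883314, + strand) was at 186, 180 and 190 CPM in siNC and at 151, 167 and 163 CPM in siE7, again without overlap. Its log2 fold change was −0.21 (SE 0.104, 95% interval −0.44 to 0.018, edgeR adjusted p = 0.14). Both intervals exclude a change of 1.5-fold in either direction. TNFAIP3 overlaps the lncRNA WAKMAR2 on the other strand, and without stranded counting their reads could not be told apart.

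Both calls of the inhibitors depend on the processing. Without scaling for composition the median of all tested genes moved by 0.17 (log2) and 71.2% of the genes that passed were higher, against 52.9% with TMM. In that analysis NFKBIA passed with a log2 fold change of 0.38 (edgeR adjusted p = 0.0060) and TNFAIP3 was at −0.039. Without siE7 replicate 1 TNFAIP3 passed with −0.23 (edgeR adjusted p = 5.4e-04) and NFKBIA did not with 0.11 (edgeR adjusted p = 0.076).

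**Figure D2:**
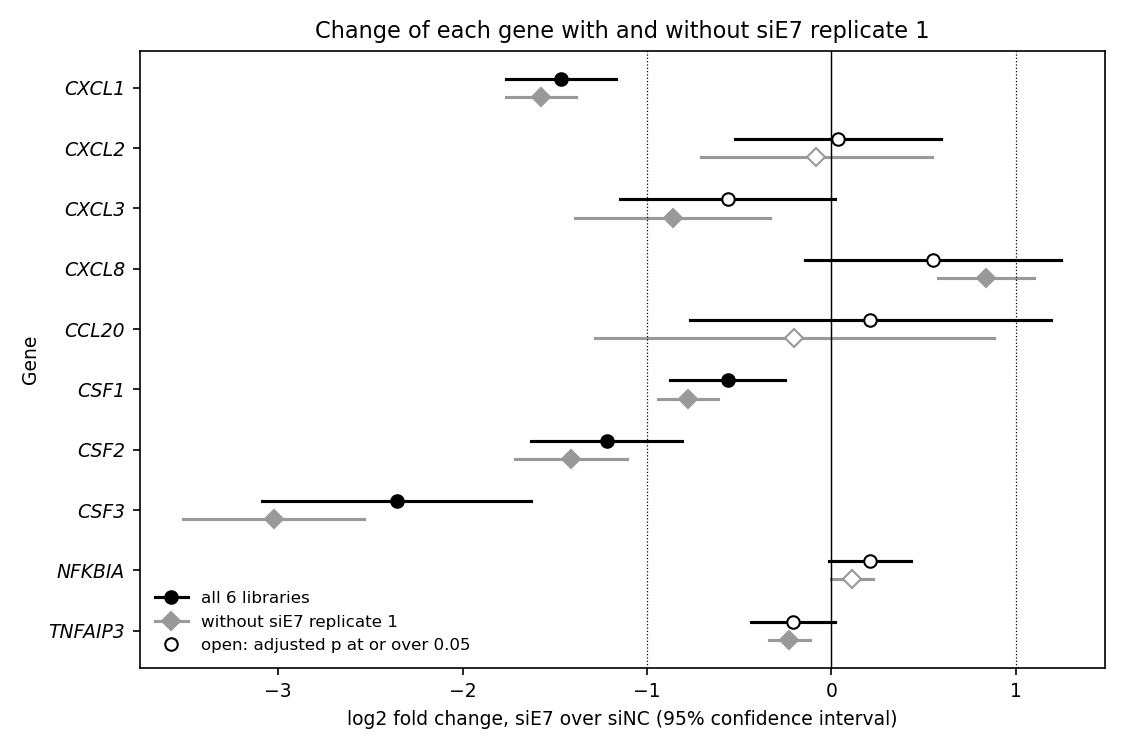
Log2 fold change of each gene, siE7 over siNC, with its 95% confidence interval, from all 6 libraries (black) and without siE7 replicate 1 (grey). Open symbols have an adjusted p at or over 0.05 and dotted lines mark a log2 fold change of 1 in either direction. CSF3 moves from −2.36 to −3.02 and CXCL8 from 0.55 to 0.84, and CXCL2 and CCL20 cross 0.

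Per kb of exon, the order of the levels in siNC was NFKBIA (98.6 CPM per kb), CXCL1 (33.2), TNFAIP3 (28.8), CSF2 (16.6), CSF1 (8.77), CSF3 (2.98), CXCL8 (2.88), CXCL3 (1.36), CXCL2 (1.16) and CCL20 (0.357). The length used was that of all annotated exons of a gene joined, not of the transcript expressed, and the order depends on it. By mean CPM in siNC, TNFAIP3 (185) stood above CXCL1 (45.2), and CSF1 (45.9) above CSF2 (13.1). Neighbours in the order per kb overlapped in 2 places, CSF3 with CXCL8 and CXCL3 with CXCL2. In siE7 the order changed. CXCL1 fell below TNFAIP3, to 12.0 against 24.9 CPM per kb, with 12.9 as the highest CXCL1 and 23.4 as the lowest TNFAIP3 value. CXCL8, at 4.22 CPM per kb, stood above CSF3, at 0.578, with no overlap. CXCL2 and CXCL3, at 1.19 and 0.923 CPM per kb, overlapped as in siNC. Neighbours in the siE7 order that also overlapped were CSF2 (7.14) with CSF1 (5.94), CSF1 with CXCL8, CXCL3 with CSF3, and CSF3 with CCL20 (0.412).

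Ratios between genes within a library do not depend on how libraries are scaled. Folds of ratios compare geometric means of the libraries. The count of CXCL8 over that of CXCL1 was 0.179, 0.156 and 0.161 in siNC and 0.281, 0.985 and 0.800 in siE7. Its geometric mean was 3.67-fold higher in siE7. Here siE7 replicate 1 also lay above all siNC libraries. CXCL1 over CXCL2 was 25.2, 27.3 and 31.4 in siNC and 9.81, 9.54 and 10.2 in siE7, with little spread in siE7. Its geometric mean was 2.83-fold lower.

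CXCL1 over CXCL3 had a 1.86-fold lower geometric mean in siE7. Within the colony stimulating factors, CSF3 over CSF1 was 0.157, 0.128 and 0.147 in siNC and 0.0578, 0.0306 and 0.0297 in siE7. This was a 3.82-fold lower geometric mean. The geometric mean of CSF3 over CSF2 was 2.45-fold lower in siE7 and that of CSF2 over CSF1 1.56-fold lower. Whether the 3 factors fell by unequal amounts is not settled by so few libraries. NFKBIA over TNFAIP3 was 1.76, 1.93 and 1.73 in siNC and 2.69, 2.18 and 2.40 in siE7, a 1.34-fold higher geometric mean. In all 7 ratios the groups did not overlap. Each had p = 0.1 in the exact two-sided permutation test (0.1 adjusted over the 7), the smallest p that 3 against 3 libraries allow. Every ratio holds at least 1 gene whose own levels already did not overlap, as for 47.6% of all tested genes. The separation is therefore no separate result about the pairs, and a share over other gene pairs was not computed.

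**Figure D3:**
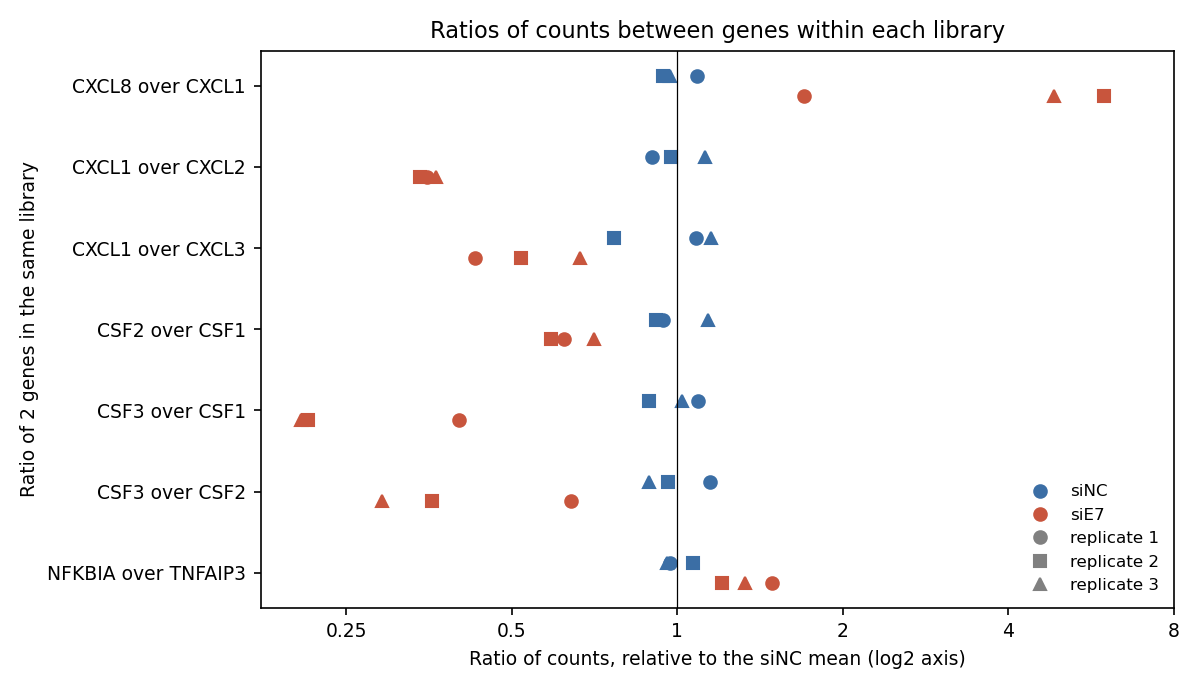
Ratio of the counts of 2 genes within each library, divided by the mean ratio of siNC, on a log2 axis. Each point is a library, with blue for siNC, red for siE7 and 1 shape per replicate number. CXCL8 over CXCL1 and NFKBIA over TNFAIP3 lie above all siNC libraries and the other 5 ratios lie below them.

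The genes whose level followed each of the 10 most closely over the 6 libraries were listed by Pearson's r of log2 CPM, as a description, since all libraries share depth and group. For CXCL1 they were SPRR1B, MTERF4 and RP11-66B24.8 (r = 0.999 each). SPRR1B, a precursor of the cornified envelope of squamous cells, fell with a log2 fold change of −1.97. For CSF3 they were LAMB3, IFNGR2 and UHRF1 with log2 fold changes of −0.94, −0.47 and −0.71, smaller than that of CSF3 itself. For CSF2 they were STXBP4, BCAR3 and DOK7, and for CSF1 they were EIF4G1, UBTD1 and PLCH2. The split pattern of CXCL8 was shared most by GORAB, SNRNP48 and ETF1 (r = 0.999, 0.998 and 0.998), with log2 fold changes of 0.62, 0.45 and 0.41. NFKBIA was followed by A1BG, ZNHIT1 and TMEM208, and TNFAIP3 by CDC20P1, ITPRIPL2 and ARAP2. The r values were lower for CXCL2, where DGAT1 came first with 0.970, and for CCL20, where ATP6V0E2 came first with 0.985. For CXCL3 the first gene was GEMIN7 with 0.993.

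Other chemokines moved both ways. Of a list of 32, 18 were in the table and 6 could be tested. Of these 3 fell and 1 rose, with a median log2 fold change of −0.37. This is 66.7% of only 6 genes, against 34% of all tested genes that passed. CCL5 (RANTES, which draws T cells and monocytes) was at 9.68, 7.25 and 10.4 CPM in siNC and at 4.59, 2.93 and 4.35 CPM in siE7, a log2 fold change of −1.20 (SE 0.223, edgeR adjusted p = 0.0019). CXCL11, an interferon-induced chemokine, and CXCL16, a membrane-bound chemokine, also fell, with log2 fold changes of −1.23 (SE 0.265) and −0.67 (SE 0.148). CCL28, a mucosal chemokine, rose by 0.86 on the log2 scale (edgeR adjusted p = 0.021), a call that was lost in 5 of 13 alternatives. CCL27 and XCL1 did not pass, with 0.50 and −0.069. The counts were again 3 lower and 1 higher, of 7 tested, without siE7 replicate 1. All tested genes were 29.5% lower and 28.9% higher in that fit.

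Most receptors of these ligands were at or near 0. Of 27 genes in the list, which also held the ligands IL34 and IL3, 16 were in the table and 3 could be tested. Only ACKR3 passed, 33.3% of the 3, where 34% of all tested genes passed. ACKR3, a scavenging receptor of CXCL12 and CXCL11, rose from 10.8, 11.4 and 10.1 CPM in siNC to 33.0, 25.0 and 19.7 CPM in siE7, a log2 fold change of 1.26 (SE 0.189, edgeR adjusted p = 5.1e-04). CSF1R, the receptor of CSF1, was at 4.90, 3.96 and 3.90 CPM in siNC and 3.78, 2.28 and 2.68 CPM in siE7, and did not pass (log2 fold change −0.54, edgeR adjusted p = 0.10). CCR3 was below 0.5 CPM in every library and did not pass (0.69). Without siE7 replicate 1 CSF1R passed as well, with −0.83 (edgeR adjusted p = 0.0014). The neutrophil chemokine receptor CXCR2 and the receptor CSF3R were chosen for mention after their values were seen. CXCR2 reached at most 0.0810 CPM in any library, and CSF3R was at 0 in all siNC libraries and reached 0.0327 CPM in siE7.

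Of the 5 subunits of NF-κB, 1 passed (20%, against 34% of all tested genes). NFKB1 (the precursor of p50) fell by 0.41 on the log2 scale (SE 0.123, edgeR adjusted p = 0.024), and this call was lost in 5 of 13 alternatives. RELA (−0.19), NFKB2 (0.10), RELB (−0.096) and REL (−0.041) did not pass. Without siE7 replicate 1 NFKB1, RELA (−0.35) and RELB (−0.31) fell, in a fit where 29.5% of all tested genes fell. None passed without siE7 replicate 3 or without any 1 of the siNC libraries. Among 17 other inhibitors and partners of A20, 2 rose and 2 fell, with a median of 0.080. Their passing share of 23.5% was below the 34% of all tested genes. NFKBIE (IκBε) was at 83.2, 75.1 and 73.6 CPM in siNC and at 54.7, 40.6 and 33.6 CPM in siE7, a log2 fold change of −0.85 (SE 0.164, edgeR adjusted p = 0.0025).

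TNIP1, an A20 partner, fell by 0.60 (SE 0.127) on the log2 scale. NFKBIL1 rose by 0.83 (SE 0.141), and NFKBIB (IκBβ) rose by 0.46 (SE 0.118), a call lost in 3 of 13 alternatives. The IκB genes thus did not move one way, with NFKBIE down, NFKBIB up and NFKBIA not past the threshold. COMMD1 (−0.29) and NFKBIZ (−0.35) did not pass. Of the 17 genes 11 passed without siE7 replicate 1, with 5 higher and 6 lower. In that fit 28.9% of all tested genes rose and 29.5% fell.

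Upstream of NF-κB, 9 of 40 tested kinases and adaptors fell and 6 rose, with a median of −0.013. That is 37.5% passing, close to the 34% of all tested genes that passed. MYD88, the adaptor of interleukin-1 and Toll-like receptors, was at 79.1, 78.1 and 79.7 CPM in siNC and at 43.7, 34.7 and 36.9 CPM in siE7, a log2 fold change of −1.04 (SE 0.121, edgeR adjusted p = 1.0e-04). TICAM1, the adaptor of TLR3, had a log2 fold change of −0.99 (SE 0.174), and TAB3, a partner of the kinase TAK1, one of −1.20 (SE 0.161). The kinases IKBKE and MAP3K14 also fell, with −0.65 and −0.66, and FBXW11, a ligase subunit that recognises phosphorylated IκB, rose by 0.68. Without siE7 replicate 1, 25 of the 40 passed, 15 lower and 10 higher. In that fit 29.5% of all tested genes fell and 28.9% rose. The number was 8, 6 and 7 without siNC replicate 1, 2 or 3.

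Of 23 tested receptors and ligands upstream, 5 fell and 4 rose, with a median of −0.16. The share that passed was 39.1%, near the 34% of all tested genes. IL1B was at 69.1, 77.7 and 77.4 CPM in siNC and at 16.9, 18.3 and 15.7 CPM in siE7, a log2 fold change of −2.14 (SE 0.125, edgeR adjusted p = 9.4e-07). IL1A, the other ligand of the interleukin-1 receptor, and TNF also fell, with log2 fold changes of −0.85 (SE 0.177) and −1.37 (SE 0.236). The receptor TNFRSF12A fell by 0.56. TNFSF14 rose by 1.94 (SE 0.286) and TNFSF10 (TRAIL) by 1.23 (SE 0.308), so the ligands of this group moved both ways. Each of the 3 cytokines IL1A, IL1B and TNF passed in all 13 alternatives. In this list 15 of 24 tested genes passed without siE7 replicate 1, with 11 lower and 4 higher. Over all tested genes 29.5% fell and 28.9% rose in that fit.

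Other targets of NF-κB also moved both ways. Of 37 tested, 15 fell and 8 rose, with a median of −0.27, and 8 were lower and 3 higher DEGs. The passing share was 62.2%, against 34% of all tested genes, of which 4.84% were lower and 7.38% higher DEGs. The list was chosen with earlier results of these data known, so its share is a description. Of the 37 genes 31 passed without siE7 replicate 1, with 19 lower and 12 higher. In that fit 29.5% of all tested genes fell and 28.9% rose. MMP9, a gelatinase, and IL23A, a subunit of interleukin-23, fell with log2 fold changes of −3.21 (SE 0.259) and −2.93 (SE 0.167). ICAM1, which leukocytes bind, was at 179, 186 and 176 CPM in siNC and at 87.9, 67.3 and 63.7 CPM in siE7, a log2 fold change of −1.31 (SE 0.134, edgeR adjusted p = 4.5e-05). PLAUR, the urokinase receptor, and the adhesion receptor CD44 fell with −1.29 and −1.15, while ATF3, a stress-induced factor, rose by 1.55 (SE 0.140). SOD2, a mitochondrial antioxidant enzyme, and the cytokine IL6 were picked out after their values were seen. SOD2 rose by 0.80 (edgeR adjusted p = 4.7e-04), and IL6 did not pass with 0.046 (95% interval −0.44 to 0.54).

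Factors that act on AU-rich elements were tested as a list of 20, of which 8 fell and 2 rose, with a median of −0.31. The share that passed was 50%, against 34% of all tested genes. DUSP1, a phosphatase of p38 and JNK, rose from 17.2, 18.4 and 18.5 CPM in siNC to 38.1, 36.5 and 40.5 CPM in siE7, a log2 fold change of 1.09 (SE 0.123, edgeR adjusted p = 7.8e-05). MAPKAPK2, a kinase that restrains the decay factor ZFP36, was at 157, 152 and 154 CPM in siNC and at 97.5, 76.9 and 76.8 CPM in siE7 (log2 fold change −0.88, SE 0.122, edgeR adjusted p = 3.1e-04). The decay factors KHSRP, ZFP36L2 and ZFP36L1 fell with log2 fold changes of −0.65, −0.66 and −0.47, and ELAVL1, which stabilises such messages, with −0.53. ZFP36 itself, named here after its values were seen, rose by 0.45 (edgeR adjusted p = 0.041), a call lost in 6 of 13 alternatives. It was the only decay factor named here that rose. The count that passed was 15 of 20 without siE7 replicate 1, with 9 lower and 6 higher. Over all tested genes 29.5% fell and 28.9% rose in that fit. The count fell from 10 to 6 without siNC replicate 2, without siNC replicate 3 or without siE7 replicate 2. The part of any of these genes in the levels of the chemokines and colony stimulating factors was not tested.

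Some markers of cell type also passed the test, and the squamous ones moved both ways. Of the 10 squamous markers 6 fell and 1 rose (70% passing, against 34% of all tested genes). The counts were 7 lower and 2 higher without siE7 replicate 1. Log2 fold changes were −1.03 for CDH1, −0.77 for EPCAM, −0.61 for SFN, −0.60 for KRT5, −0.38 for DSP and 0.70 for KRT17. Of 7 tested leukocyte markers 4 fell, with log2 fold changes of −3.47 for LAPTM5 (a mean of 1.44 CPM in siNC), −1.77 for CORO1A, −1.02 for S100A8 and −0.66 for S100A9. CSF1R and CD14 did not pass, and the passing share of this list was 57.1%. In the fit without siE7 replicate 1, 6 of 8 tested leukocyte markers fell and of 4 tested fibroblast and endothelial markers DCN rose. Over all tested genes 29.5% fell and 28.9% rose in that fit. None of the 3 tested fibroblast and endothelial markers passed by edgeR, also at an unadjusted p under 0.05 (log2 fold changes COL1A1 0.26, COL1A2 −0.40 and ACTA2 −0.14). DCN, a fibroblast proteoglycan under the filter on low counts, was named after its values were seen. It was called higher by DESeq2 (adjusted p = 0.022), and its highest level in any library was 0.621 CPM. The part of these marker changes in the results for the chemokines and colony stimulating factors was not tested.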

How the data were processed

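RNA of 6 SCC-9 samples (3 siNC, 3 siE7) was sequenced by the authors as directional poly(A) libraries with 150-base paired-end reads on a NovaSeq 6000. The authors deposited whole-number read counts per gene without normalization, and the submitters' processing notes name HISAT2, DESeq2 and GRCh38. The counting tool and its use of strand are not given in the sources used here. Groups were taken from the sample titles. 

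From the 25349 genes, filterByExpr kept 14661. The groups were compared by the quasi-likelihood F-test of edgeR 4.0.16 (TMM factors, robust dispersions, R 4.3.3) with Benjamini-Hochberg adjustment over all tested genes. A gene passed at an adjusted p under 0.05 and was a DEG with a log2 fold change beyond 1. CPM values are counts relative to the TMM-scaled library size, with no pseudocount, and correlations used log2 CPM with a prior count of 2. The code was tested on simulated data. With 3 against 3 libraries an exact permutation test cannot give a p under 0.1. Precision is limited by the counts behind each value, from 11 for CCL20 upwards.

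Named are all 10 members, MKI67, every gene of a list of at most 5, otherwise the 6 tested genes with the smallest p in each list, and for each member the 3 genes with the highest correlation. Names outside this rule are marked as such. The members and the lists were chosen with earlier results of these data known. Gene positions, exons and UTRs come from GENCODE v44 on GRCh38 (25283 of 25349 identifiers matched without version) and promoters from RefSeq (GRCh38.p14). Alternatives were DESeq2 1.42.0, upper-quartile or RLE factors, library totals alone, no filter, a minimum of 10 counts per library, the replicate number as a block, CXCL1 to CXCL3 summed, and each library left out in turn. Equal replicate numbers did not deviate together (r of −0.039, −0.021 and −0.052), so the samples were not taken as paired. Where leaving out a library is reported, the remaining pair is assumed to share the spread of the other group. Python 3.11.15, pandas 2.3.3 and matplotlib 3.10.9 were used for tables and figures.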

Additional observations from a re-analysis of the deposited data

How the results depend on the processing

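CXCL1, CSF2 and CSF3 kept their direction and stayed past the threshold in every alternative run, and the number of DEGs among the 10 genes stayed at 3 in all 13. The number of the 10 genes that passed ranged from 3 to 7 with a library left out. It was 7 without siE7 replicate 1, and that fit uses fewer libraries. A replicate block on the replicate number left the count at 4, changed no call of the 10 genes and gave 4947 passing genes in place of 4990. CXCL2 and CCL20 reversed. CXCL2 went to −0.020 with DESeq2 and −0.011 with RLE factors, and ranged from −0.081 (without siE7 replicate 1) to 0.11 with a library left out. CXCL1, CXCL2 and CXCL3 summed as 1 gene had −1.31. That value is mostly CXCL1, which gave most of the summed counts, and tells nothing about CXCL2. CCL20 ranged from −0.20 to 0.55 with a library left out. CXCL8 passed with no filter on low counts (0.54, edgeR adjusted p = 0.037).

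With a library left out, passing genes ranged from 1 to 2 among the receptors, from 0 to 3 among the NF-κB subunits, from 3 to 11 among the other inhibitors, from 6 to 25 among the kinases and adaptors, from 6 to 15 among the upstream receptors and ligands, from 6 to 15 among the AU-rich element factors and from 0 to 1 among the fibroblast and endothelial markers. Without composition scaling the subunits gave 0, and DESeq2 and the analysis with no filter each gave 1 fibroblast or endothelial marker. Among all tested genes 3153 to 8765 passed with a library left out, the highest without siE7 replicate 1. The cause was not tested. No list gene that passed changed sign in any of the 13 alternatives. Low counts limit CCL20, CXCL2 and CXCL3, with 11 to 93 counts a library.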
